A study of Caenorhabditis elegans with 16 samples.

Results

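The genes described here are the 10 core members of the insulin-like signaling pathway of the nematode Caenorhabditis elegans, namely daf-2, ist-1, age-1, aap-1, pdk-1, akt-1, akt-2, sgk-1, daf-18 and daf-16. They were chosen by gene name, and all 10 were found among the 19750 genes measured. RNA came from pools of about 500 wild-type N2 worms, taken whole on day 1 of adulthood. The 4 groups were worms fed bacteria with an empty vector (EV), which silences no gene, or with an RNAi clone against ech-6, an enoyl-CoA hydratase gene, each with vehicle or with P-80. P-80 is polysorbate 80, a soluble fat that carries oleic acid. Every group held 4 pools, all groups lived on RNAi bacteria, and RNAi given by feeding lowers a transcript without removing the gene.

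In this pathway, insulin-like peptides bind the receptor DAF-2, and a phosphoinositide 3-kinase then makes a membrane lipid that recruits the kinases PDK-1, AKT-1 and AKT-2. These kinases keep the FOXO transcription factor DAF-16 out of the nucleus, and the phosphatase DAF-18 removes the lipid again. The pathway is known in worms for its control of lifespan, dauer arrest, fat storage and stress resistance. Most of its steps act through protein modification, which transcript levels do not measure.

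Between 15306307 and 28129104 reads per sample fell on genes. The library labelled ech-6 RNAi + vehicle replicate 3 went against its label. Its ech-6 level was 7.48 log2 CPM (log2 of the count scaled to library size), where the other 3 libraries of that group had 6.05 to 6.17 and the 4 of EV + vehicle had 7.36 to 7.50. It was kept in its labelled group. Some of the results that use it are also given without it, the rest with it only. Each pool was a separate sample, and in such whole-worm RNA, fewer cells of a type and less RNA per cell cannot be told apart. The markers of neurons, intestine, body wall muscle, hypodermis, oocytes and sperm were all detected, with none at 0 in any group.

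Some of these markers moved with the groups. All 6 hypodermis markers were called for P-80 in EV by limma, beside 6.97% of all genes called higher and 9.14% lower. The cuticle collagen genes dpy-7 (log2 fold change -1.95), bli-1 (-1.79), rol-6 (-1.51) and sqt-3 (-1.47) were lower, and the collagen genes col-19 (0.53) and col-7 (0.38) were higher. In ech-6 RNAi worms 3 of the 6 were lower with P-80 (bli-1, rol-6 and sqt-3), beside 4.58% of all genes. That count was 1 without ech-6 RNAi + vehicle replicate 3 or ech-6 RNAi + P-80 replicate 1, 2 or 4. For ech-6 RNAi with vehicle, col-7 and col-19 were higher, beside 1.95% of all genes. Of 5 muscle markers, 3 were higher for P-80 in ech-6 RNAi (myo-3, unc-27 and unc-54, by 0.12 to 0.16), beside 2.63% of all genes. That count was 0 without replicate 2, 3 or 4 of ech-6 RNAi + vehicle or replicate 1 or 4 of ech-6 RNAi + P-80, and 1 without replicate 3 of the latter. For P-80 in EV, 1 of the muscle markers was higher (unc-27, by 0.14), beside 6.97% of all genes. Of 7 neuron markers, 1 (snb-1) was lower for P-80 in EV (-0.16), beside 9.14% of all genes. It was also lower for ech-6 RNAi with vehicle (-0.18), beside 0.982%. Both counts for P-80 in EV fell to 0 when any 1 of 5 samples was left out. The neuron count for ech-6 RNAi with vehicle did so for any 1 of 6, ech-6 RNAi + vehicle replicate 3 included. The part of these shifts in the results below was not tested. The oocyte markers are given beside daf-18.

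All 10 transcripts were well measured. The least abundant, pdk-1, had 146 to 323 reads per sample, and the most abundant, daf-18, had 2696 to 7307. Divided by the length of the annotated exons, daf-18 stood highest with a mean level of 68.7 CPM per kb (52.7 to 80.1 over the 16 samples), followed by akt-1 with 55.7 (52.5 to 60.3). The phosphatase gene and this AKT kinase gene were thus the most abundant transcripts of the pathway per length, although the ranges of these 2 overlapped. The length joins the exons of all annotated transcripts, so genes with many of them may read too low. There were 11 for daf-16 and 7 for daf-2, against 1 for daf-18. A middle tier held sgk-1 at 22.2 CPM per kb, daf-16 at 21.9, daf-2 at 19.9, aap-1 at 17.2 and age-1 at 14.7, each overlapping its neighbour. Then came akt-2 at 11.9 (10.6 to 13.4), and last ist-1 at 4.50 and pdk-1 at 4.27, whose ranges overlapped. The neighbours in this order whose ranges did not overlap were akt-1 and sgk-1, age-1 and akt-2, and akt-2 and ist-1.

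**Figure D1:**
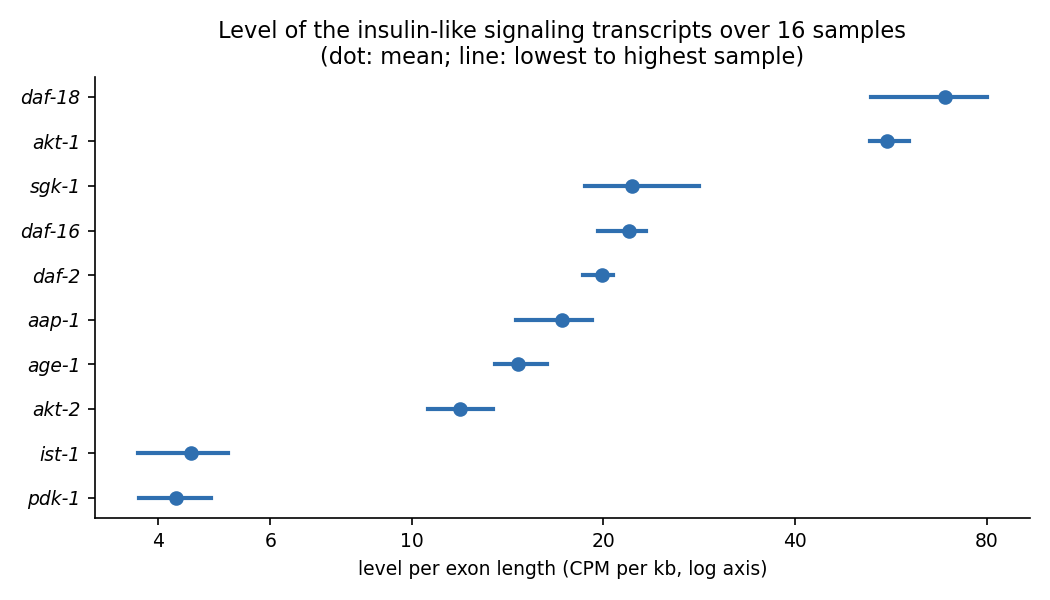
Level of each transcript divided by exon length (CPM per kb, log axis) over the 16 samples, with a dot for the mean and a line from the lowest to the highest sample. The order runs from daf-18 (68.7) and akt-1 (55.7) down to ist-1 (4.50) and pdk-1 (4.27), with a gap between akt-1 and sgk-1 (22.2).

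The proportions between partners can be read within each sample. Per exon length, akt-1 was 4.01 to 5.49 times as abundant as its paralog akt-2 in each sample (median 4.67). The level of daf-18 was 3.64 to 5.58 times that of age-1, the kinase it opposes, and akt-1 was 11.3 to 15.5 times as abundant as pdk-1, the kinase that activates it. The catalytic subunit gene age-1 and its adaptor gene aap-1 were near parity, at a ratio of 0.771 to 1.03. These ratios carry the limit of the joined exon lengths given above.

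The SD of log2 CPM over the 16 samples had a median of 0.107 over the 10 genes, from 0.041 for daf-2 to 0.177 for daf-18. Over the 7753 genes whose level lay within the same range the median was 0.118, so the members varied about as much as other genes of their level. Within groups the median SD was 0.105 for the members and 0.099 for those genes. Among the 10, daf-18, sgk-1 and ist-1 had the widest spreads, at 0.177, 0.155 and 0.154.

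**Figure D2:**
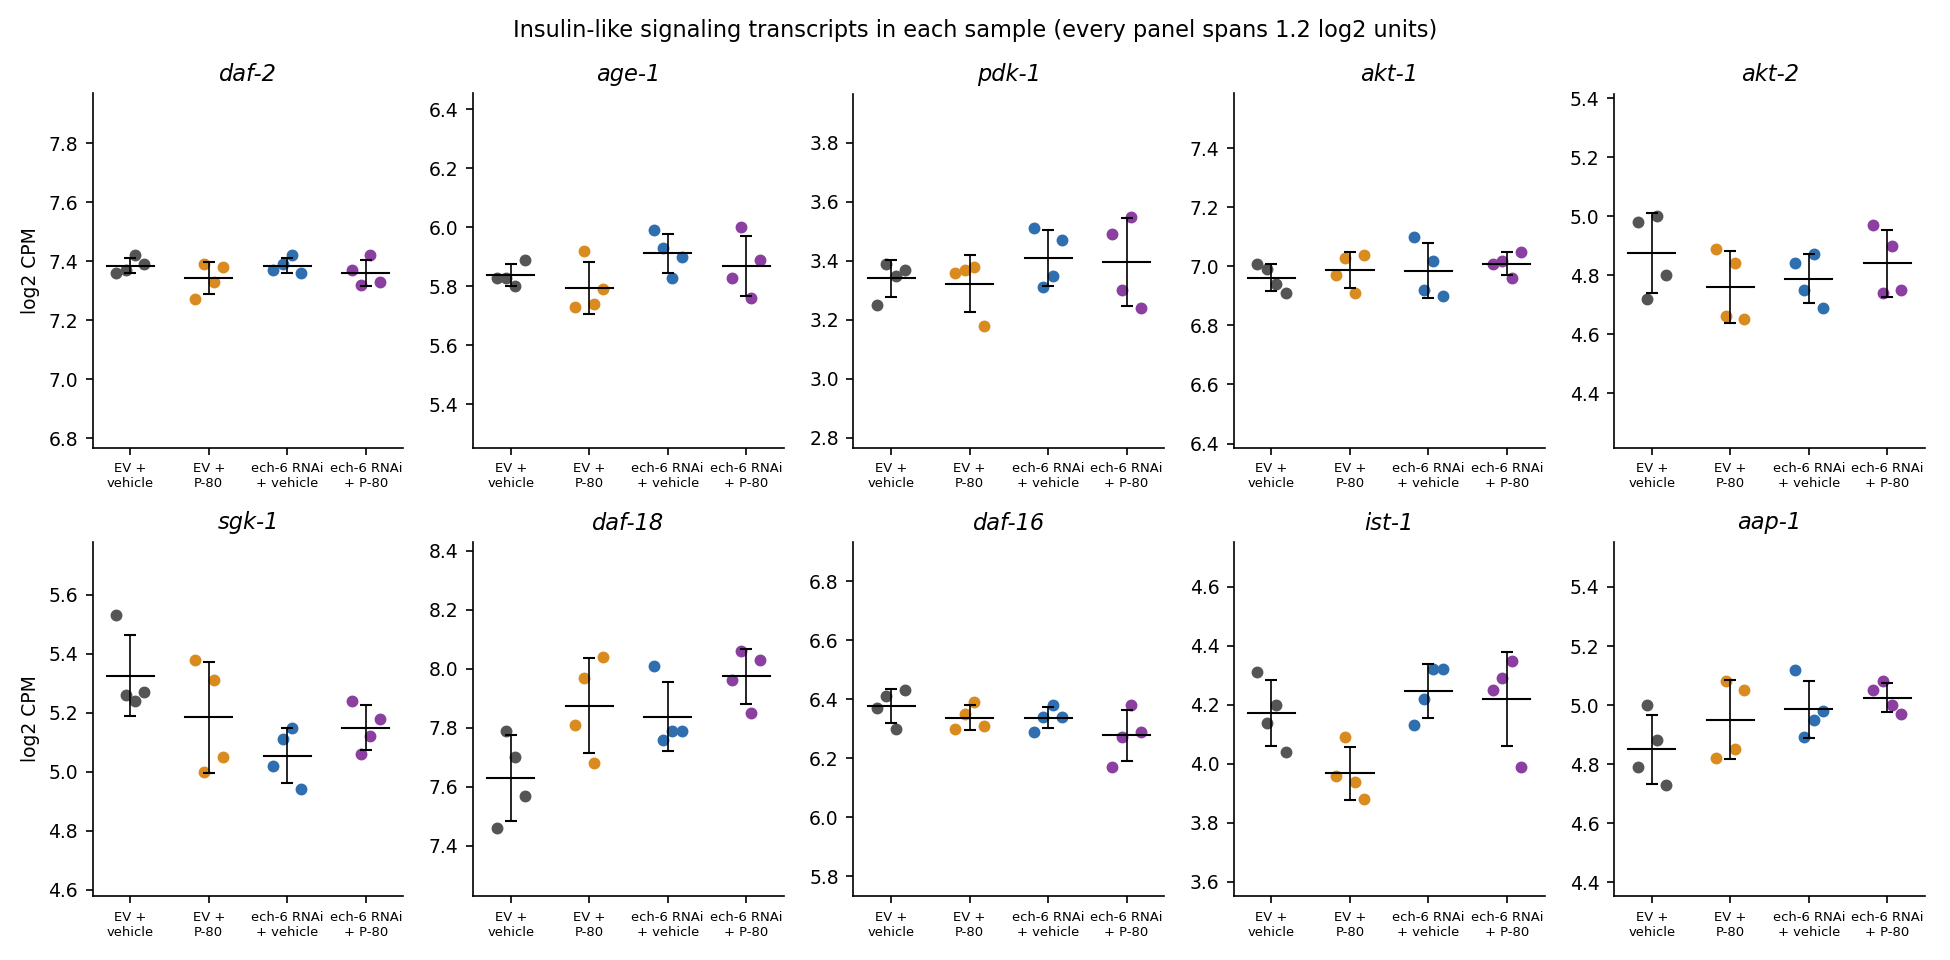
Log2 CPM of each of the 10 transcripts in every sample, by group, with the mean and SD as black bars and the same span of 1.2 log2 units in every panel. The points of daf-2 stay within 7.27 to 7.42, while daf-18 runs from 7.46 to 8.06.

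Differences were tested with limma, p-values were adjusted by the Benjamini-Hochberg method across the 19750 genes, and a gene was called at an adjusted p under 0.05. The first comparison asks what P-80 changed in control worms. There 1 of the 10 genes, daf-18, was called higher, beside 6.97% of all genes, and 0 of 10 were called lower, beside 9.14%. The groups did not overlap for 0 of the 10, beside 19% of all genes. Two-sided unadjusted p-values under 0.05 were found for 2 of them, daf-18 and ist-1, beside 28.5% of all genes.

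When P-80 was given to ech-6 RNAi worms, 0 of 10 were called in either direction, where 2.63% of all genes were called higher and 4.58% lower, and 11.2% had groups that did not overlap against 0 of the 10. None of the 10 had an unadjusted p under 0.05 in that comparison, beside 19.4% of all genes. For ech-6 RNAi against EV with vehicle, 0 of 10 were called, with 1.95% of all genes higher and 0.982% lower. There 2 had an unadjusted p under 0.05, beside 18.5% of all genes. The groups did not overlap for 1 of the 10 (sgk-1), beside 13.1% of all genes. For ech-6 RNAi against EV with P-80, 0 of 10 were called, with 0.476% of all genes higher and 0.223% lower. In that last comparison 1 had an unadjusted p under 0.05, beside 10.3% of all genes. Groups that did not overlap were found for 0 of the 10, beside 4.62% of all genes. The comparisons share groups, so their values are not independent of each other. The interaction is the P-80 effect in ech-6 RNAi worms minus that in EV worms. It called 0 of 10 and 0% of all genes. For 1168 genes (5.91%) and none of the 10, the unadjusted p was under 0.05. Without the library that goes against its label, sgk-1 fell just under it (limma unadjusted p = 0.0497). The same limma comparison on recovered reads with voom weights also called none of the 10 in these 4 comparisons and daf-18 for P-80 in EV.

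Under the scaling used, the intervals bound how large an uncalled change could be. Over the 10 genes, the 95% confidence limits of the fold lay within 0.769 and 1.33 for P-80 in EV, 0.871 and 1.24 for P-80 in ech-6 RNAi, 0.733 and 1.3 for ech-6 RNAi with vehicle, and 0.863 and 1.34 for ech-6 RNAi with P-80. Changes of 2-fold or more in either direction lay outside these limits for each of the 10 genes in each of those comparisons. The median absolute log2 fold change of the 10 was 0.072, 0.040, 0.074 and 0.076 in the same order, beside 0.199, 0.157, 0.157 and 0.121 over all genes, whose many weakly expressed members have larger errors.

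**Figure D3:**
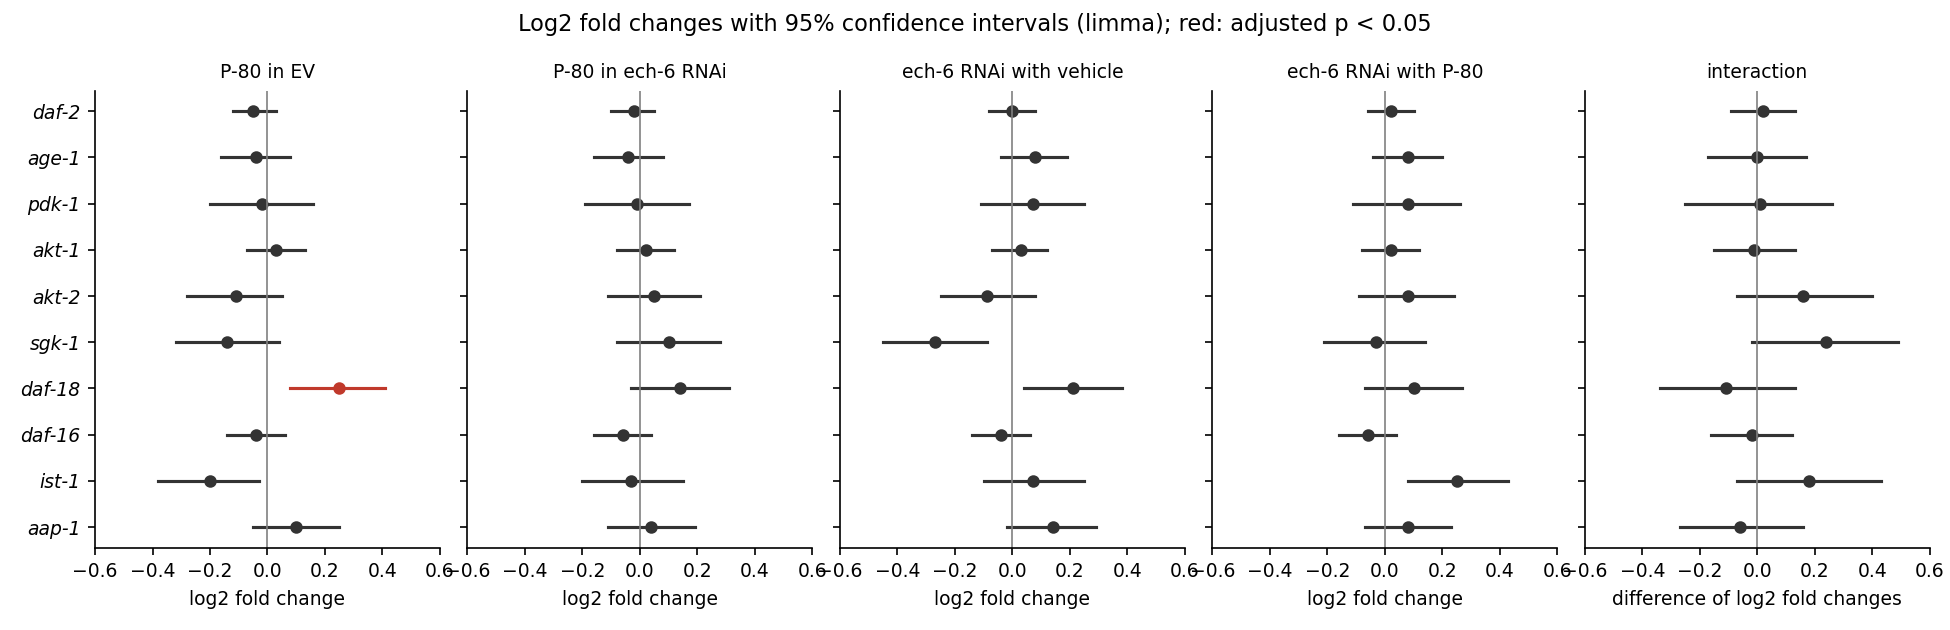
Log2 fold changes of the 10 transcripts (dots) with 95% confidence intervals (lines) in the 4 comparisons, and the interaction at the right as a difference of log2 fold changes. The interval of daf-18 for P-80 in EV (0.08 to 0.41, red) is the one that passed the adjusted test, and those of daf-2 stay within -0.12 and 0.10 in the 4 comparisons.

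The receptor gene daf-2 (WBGene00000898, WBcel235 chromosome III, 2994514 to 3040846, minus strand, 27 distinct exons) was the steadiest of the 10. Its log2 CPM was 7.36, 7.37, 7.42 and 7.39 in EV + vehicle, and 7.27, 7.39, 7.33 and 7.38 in EV + P-80. With ech-6 RNAi it was 7.37, 7.39, 7.42 and 7.36 with vehicle, and 7.37, 7.32, 7.42 and 7.33 with P-80. All 4 groups overlapped, and no sample stood apart. Its log2 fold changes were -0.05, -0.02, 0.00 and 0.02 in the 4 comparisons, with an SE of 0.038, so that its fold lay between 0.918 and 1.07 in all their 95% intervals. A noncoding RNA gene, linc-143, overlaps daf-2 on the same strand.

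The gene ist-1 (WBGene00002163, chromosome X, 7126648 to 7139666, plus strand), which encodes the worm relative of the insulin receptor substrates that link the receptor to the lipid kinase, had its lowest group mean in EV + P-80, without passing the adjusted test. It measured 4.31, 4.14, 4.2 and 4.04 log2 CPM in EV + vehicle and 3.96, 4.09, 3.94 and 3.88 in EV + P-80. The ech-6 RNAi samples measured 4.13, 4.22, 4.32 and 4.32 with vehicle and 4.25, 4.29, 4.35 and 3.99 with P-80. Only 1 EV + P-80 sample reached the range of EV + vehicle, and 1 ech-6 RNAi + P-80 sample fell within that of EV + P-80. The log2 fold change was -0.20 (SE 0.083, limma adjusted p = 0.108) for P-80 in EV and 0.25 (SE 0.083, adjusted p = 0.244) for ech-6 RNAi with P-80. The interaction was 0.18 (SE 0.12, adjusted p = 0.875), so the 2 P-80 effects were not shown to differ.

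The catalytic subunit gene age-1 (WBGene00000090, chromosome II, 11519328 to 11527054, minus strand) ranged from 5.73 to 6.0 log2 CPM over all samples, and its log2 fold changes lay between -0.04 and 0.08 (SE 0.057). Its adaptor gene aap-1 (WBGene00000001, chromosome I, 5107843 to 5110183, plus strand) ranged from 4.73 to 5.12. Group means of aap-1 were 4.85, 4.95, 4.99 and 5.03 in EV without and with P-80 and in ech-6 RNAi without and with P-80, in that order. The highest value among its comparisons was a log2 fold change of 0.14 for ech-6 RNAi with vehicle (SE 0.073, limma adjusted p = 0.334). Both genes overlap others on the opposite strand, as do pdk-1 and akt-1. The authors counted reads by strand, and how well this separated the overlapping genes was not checked.

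Of the kinases downstream, pdk-1 (WBGene00003965, chromosome X, 1321344 to 1327986, plus strand) ranged from 3.18 to 3.55 log2 CPM. Its SD over the samples, 0.102, equalled the 0.102 that counting alone gives at its depth. The AKT gene akt-1 (WBGene00000102, chromosome V, 10248905 to 10252845, plus strand) ranged from 6.90 to 7.10, with log2 fold changes of 0.03, 0.02, 0.03 and 0.02 (SE 0.047). Its paralog akt-2 (WBGene00000103, chromosome X, 14147700 to 14152070, plus strand) ranged from 4.65 to 5.0, with log2 fold changes from -0.11 to 0.08 (SE 0.078). Neither AKT gene was called in any comparison.

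The gene sgk-1 (WBGene00004789, chromosome X, 16254842 to 16262122, minus strand) encodes a related kinase that also acts downstream of the TORC2 complex. It measured 5.53, 5.26, 5.24 and 5.27 log2 CPM in EV + vehicle and 5.02, 5.11, 5.15 and 4.94 in ech-6 RNAi + vehicle. With P-80 it measured 5.38, 5.0, 5.31 and 5.05 in EV and 5.24, 5.06, 5.12 and 5.18 in ech-6 RNAi. Every ech-6 RNAi + vehicle sample lay below every EV + vehicle sample, while the P-80 groups overlapped both. The log2 fold change for ech-6 RNAi with vehicle was -0.27 (SE 0.085, 95% interval -0.45 to -0.09, limma unadjusted p = 0.005, adjusted p = 0.0915), which missed the threshold. Without the library that goes against its label it was -0.30 (adjusted p = 0.105). EV + vehicle replicate 1 stood above the other 3 of its group, and without it the value was -0.20 (adjusted p = 0.321). A fit of the 8 samples of these groups alone called sgk-1, with an adjusted p of 0.0348. The interaction of sgk-1 was 0.24 (SE 0.12, adjusted p = 0.845). Without the library that goes against its label the interaction was 0.27 (SE 0.13, limma unadjusted p = 0.0497, adjusted p = 0.787).

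The phosphatase gene daf-18 (WBGene00000913, chromosome IV, 420011 to 425177, minus strand, 7 exons) was the one member called. Its log2 CPM was 7.46, 7.79, 7.70 and 7.57 in EV + vehicle and 7.81, 7.97, 7.68 and 8.04 in EV + P-80. The ech-6 RNAi samples had 8.01, 7.76, 7.79 and 7.79 with vehicle and 7.96, 8.06, 7.85 and 8.03 with P-80. EV + vehicle held the lowest 2 samples, and the ranges of EV + vehicle and EV + P-80 overlapped. P-80 raised daf-18 in EV by 0.25 on the log2 scale (SE 0.08, 95% interval 0.08 to 0.41, fold 1.19, limma adjusted p = 0.0406). The log2 fold change was 0.14 for P-80 in ech-6 RNAi (SE 0.08, adjusted p = 0.358), 0.21 for ech-6 RNAi with vehicle (adjusted p = 0.165) and 0.10 for ech-6 RNAi with P-80 (adjusted p = 0.714). The interaction was -0.11 (SE 0.11, adjusted p = 0.911).

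The call on daf-18 was close to the threshold. It was lost without EV + vehicle replicate 1 (adjusted p = 0.157) or 4 (0.113), and without EV + P-80 replicate 1 (0.0538), 2 (0.120) or 4 (0.143). It was also lost in a fit without the mean-variance trend (0.107), in a robust fit (0.0735) and in a fit of the 2 groups alone (0.0757). Without the library that goes against its label it held, at an adjusted p of 0.0492.

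The level of daf-18 moved with transcripts of the germline. The summed level of 6 oocyte markers (oma-1, oma-2, puf-5, cbd-1, egg-1 and rme-2) was 1480, 1820, 1660 and 1520 CPM in EV + vehicle, where daf-18 was 176, 221, 207 and 190 CPM. In EV + P-80 the sums were 1780, 2040, 1730 and 2220 CPM beside 225, 252, 205 and 263 CPM of daf-18. The ech-6 RNAi + vehicle samples had sums of 2210, 1780, 1920 and 1880 CPM beside 258, 216, 221 and 222 CPM, and those with P-80 had 2130, 2250, 1880 and 2150 CPM beside 250, 267, 231 and 261 CPM. In every group the sample with the highest oocyte sum also had the highest daf-18 level. Most of this sum came from cbd-1, with group means from 1010 CPM (EV + vehicle) to 1300 CPM (ech-6 RNAi + P-80). Next came rme-2, with 332 and 438 CPM in the same groups. The ratio of daf-18 to the oocyte sum stayed between 0.115 and 0.126 in all 16 samples. It was 0.119 to 0.125 in EV + vehicle and 0.118 to 0.126 in EV + P-80. Of the 6 oocyte markers, 5 were called higher with P-80 in EV (median log2 fold change 0.30), beside 6.97% of all genes. In the other comparisons 0 were called. Even so, 5 had an unadjusted p under 0.05 for ech-6 RNAi with vehicle (median 0.29), beside 18.5% of all genes. The first of these counts fell to 1 without EV + vehicle replicate 1, to 0 without EV + vehicle replicate 4 or EV + P-80 replicate 4, and to 2 without EV + P-80 replicate 2. For ech-6 RNAi with vehicle the count of oocyte markers called was 5 without EV + vehicle replicate 2, 2 without EV + P-80 replicate 3 or 4, and 1 without ech-6 RNAi + P-80 replicate 3.

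**Figure D4:**
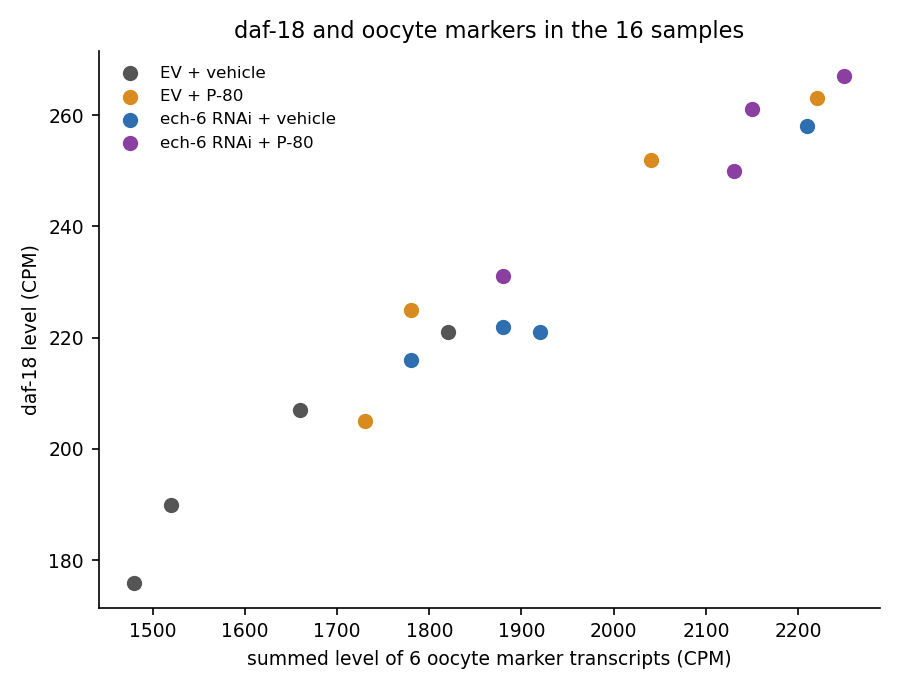
Level of daf-18 (CPM) against the summed level of 6 oocyte marker transcripts (CPM) in the 16 samples, colored by group. The points of all 4 groups lie along 1 line, from 176 CPM of daf-18 at 1480 CPM of oocyte markers to 267 CPM at 2250 CPM.

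Over the 16 samples the log2 levels of daf-18 and of the oocyte sum had a Pearson r of 0.98 and a Spearman rho of 0.94, each with a permutation p of 1e-05, the smallest that 100000 permutations can give (adjusted p = 5e-05 for r over the 10 members). After subtracting group means, r was 0.96 (permutation p = 1e-05, adjusted 0.0001) and rho 0.98. Leaving out the 2 samples farthest from the median oocyte level gave an r of 0.97. The adaptor gene aap-1 showed the next closest relation, with r = 0.90 and rho = 0.87 over all samples and r = 0.88 within groups (permutation p = 0.00093, adjusted 0.0046), and 0.83 without those 2 samples. For akt-1, r was 0.67, rho 0.75, and 0.71 within groups (permutation p = 0.006, adjusted 0.020), and 0.81 without those 2 samples. The relation is given for the 10 members only, with no share of all genes beside it, so it is not shown to be particular to them.

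Other members had weaker or negative values. For sgk-1, r was -0.68 and rho -0.67 over all samples (permutation p = 0.0036, adjusted 0.012), with an r of -0.60 within groups (p = 0.062, adjusted 0.15), a rho of -0.65 within groups (unadjusted permutation p = 0.033) and an r of -0.51 without the 2 farthest samples. For daf-16, r was -0.60 and rho -0.58 (permutation p = 0.013, adjusted 0.026), with -0.38 within groups (p = 0.16, adjusted 0.23) and -0.50 without the 2 farthest samples. For age-1, r was 0.40 over all samples (permutation p = 0.13, adjusted 0.18), 0.51 within groups (p = 0.075, adjusted 0.15) and 0.58 without the 2 farthest samples. For akt-2, r was -0.44 (permutation p = 0.091, adjusted 0.15) and -0.46 within groups (p = 0.12, adjusted 0.20). The r of daf-2, pdk-1 and ist-1 over all samples was -0.15, 0.05 and -0.10. With the mean log2 level of the oocyte markers as a covariate in the limma fit, the log2 fold change of daf-18 for P-80 in EV was 0.01 (SE 0.05, 95% interval -0.10 to 0.11, adjusted p = 0.982). That covariate itself differed between the groups and daf-18 followed it closely, so this fit cannot separate the diet from the oocyte level. In the same fit sgk-1 had a log2 fold change of -0.12 for ech-6 RNAi with vehicle (adjusted p = 0.775). The relation and the covariate fit were chosen after the values had been seen.

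The output of the pathway, the FOXO transcription factor gene daf-16 (WBGene00000912, chromosome I, 10750498 to 10776703, plus strand, 11 annotated transcripts), had groups that all overlapped. It measured 6.37, 6.41, 6.3 and 6.43 log2 CPM in EV + vehicle and 6.3, 6.35, 6.39 and 6.31 in EV + P-80. The ech-6 RNAi samples measured 6.29, 6.34, 6.38 and 6.34 with vehicle and 6.17, 6.27, 6.38 and 6.29 with P-80. No sample stood apart. The log2 fold changes were -0.04, -0.06, -0.04 and -0.06 (SE 0.047), with limma adjusted p-values from 0.567 to 0.718. The values sum all transcripts of the gene, so isoforms were not compared.

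Several genes that act around the core were called. Of 23 partners and regulators of the pathway, 21 were in the table, and P-80 in EV lowered 4 of them and raised 0 (median log2 fold change -0.05), beside 9.14% of all genes lower and 6.97% higher, and beside the hypodermis markers called in the same comparison. They were ftt-2, a 14-3-3 protein gene that holds DAF-16 in the cytoplasm (-0.27, SE 0.061, limma adjusted p = 0.00517), skn-1, a Nrf stress factor gene (-0.18, adjusted p = 0.0143), pha-4, a FOXA factor gene (-0.38, adjusted p = 0.0172), and rle-1, a ubiquitin ligase gene for DAF-16 (-0.19, adjusted p = 0.0438). The count of 4 fell to 1 without EV + vehicle replicate 4 and to 2 without EV + P-80 replicate 1 or 4, and 1 gene was called higher without replicate 3 of EV + P-80 or of ech-6 RNAi + P-80. In ech-6 RNAi worms, P-80 lowered skn-1 (-0.22, adjusted p = 0.0079) and ftt-2 (-0.21, adjusted p = 0.0459), beside 4.58% of all genes lower. This count of 2 stayed at 2 without EV + vehicle replicate 1, 2 or 3, EV + P-80 replicate 3 or 4, or ech-6 RNAi + P-80 replicate 3. It was 1 without any other sample, the library that goes against its label included. For ech-6 RNAi against EV, none of the 21 was called with vehicle or with P-80, and 1 was called lower with vehicle when EV + vehicle replicate 2 was left out.

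Among the insulin-like peptides, the agonist gene ins-6 was higher with P-80 in EV (0.61, SE 0.20, limma adjusted p = 0.0447), as 1 of 4 agonists, beside 6.97% of all genes. At 21 to 52 reads per sample in these 2 groups it was a low transcript, and the call was lost when any of 10 samples was left out (all but EV + vehicle replicate 1, EV + P-80 replicate 3, replicates 1 and 2 of ech-6 RNAi + vehicle, and replicates 2 and 3 of ech-6 RNAi + P-80). The other 3 agonists (daf-28, ins-4 and ins-7) and both antagonists (ins-1 and ins-18) were not called in any comparison.

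Genes known to be higher when DAF-16 is active moved in both directions. Of 24 on the list, 22 were in the table. P-80 in EV raised 4 and lowered 3 (median -0.13), beside 6.97% of all genes higher and 9.14% lower. In ech-6 RNAi it raised 3 and lowered 2 (median 0.03), beside 2.63% and 4.58% of all genes. All 6 hypodermis markers were called in the first of these comparisons and 3 of the 6 in the second, with the limit given above. The count of 2 was 1 without ech-6 RNAi + vehicle replicate 1, 2 or 3, or ech-6 RNAi + P-80 replicate 1, 2 or 4. The ferritin gene ftn-1, whose product stores iron, went from 8.39 ± 1.46 CPM (SD, n = 4) to 18 ± 1.16 with P-80 in EV (log2 fold change 1.12, SE 0.14, limma adjusted p = 5.67e-05), and from 7.94 ± 1.85 to 17.5 ± 1.81 in ech-6 RNAi (1.16, adjusted p = 5.68e-05). Against it, nnt-1, the mitochondrial transhydrogenase gene, fell by 0.78 in EV (adjusted p = 8.49e-05) and by 0.48 in ech-6 RNAi (adjusted p = 0.0108). The glyoxylate cycle gene icl-1 fell by 0.35 in EV (adjusted p = 0.000467) and by 0.20 in ech-6 RNAi (adjusted p = 0.0319). The small heat shock protein gene hsp-12.3 rose by 0.84 in EV (adjusted p = 0.00135). Under ech-6 RNAi, the fat diet raised dod-3 by 1.04 (adjusted p = 0.000418) and spp-1, a saposin-like protein gene, by 0.40 (adjusted p = 0.00137). Both were also higher with P-80 in EV, dod-3 by 0.73 (adjusted p = 0.00283) and spp-1 by 0.23 (adjusted p = 0.0211). The superoxide dismutase gene sod-3, named outside the rule because it is a common reporter of DAF-16, had log2 fold changes of 0.23 and -0.05 for P-80 in EV and in ech-6 RNAi (SE 0.28, adjusted p = 0.652 and 0.951).

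For ech-6 RNAi with vehicle, 0 of these 22 genes were called higher and 4 lower (median -0.11), beside 1.95% and 0.982% of all genes. Without EV + P-80 replicate 1 or ech-6 RNAi + vehicle replicate 4, 1 was called higher. The small heat shock protein genes hsp-16.2 and hsp-16.41, chaperone genes induced by stress, changed most in this set of 4. The first went from 8.14 ± 2.14 CPM (SD, n = 4) in EV + vehicle to 3.18 ± 0.64 (log2 fold change -1.33, SE 0.17, limma adjusted p = 0.000242). The second went from 9.70 ± 0.81 to 3.67 ± 0.596 CPM (-1.41, SE 0.20, adjusted p = 0.000579). Both belong to a family of near-identical copies, so how their reads were shared out is uncertain. The other 2 were icl-1 (-0.32, adjusted p = 0.00326) and nnt-1 (-0.50, adjusted p = 0.0133). Without the library that goes against its label the count was also 4. With P-80, ech-6 RNAi lowered hsp-16.2 (-0.97, adjusted p = 0.00741) and hsp-16.41 (-1.38, adjusted p = 0.00115) and raised spp-1 (0.41, adjusted p = 0.00328), beside 0.223% of all genes lower and 0.476% higher.

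**Figure D5:**
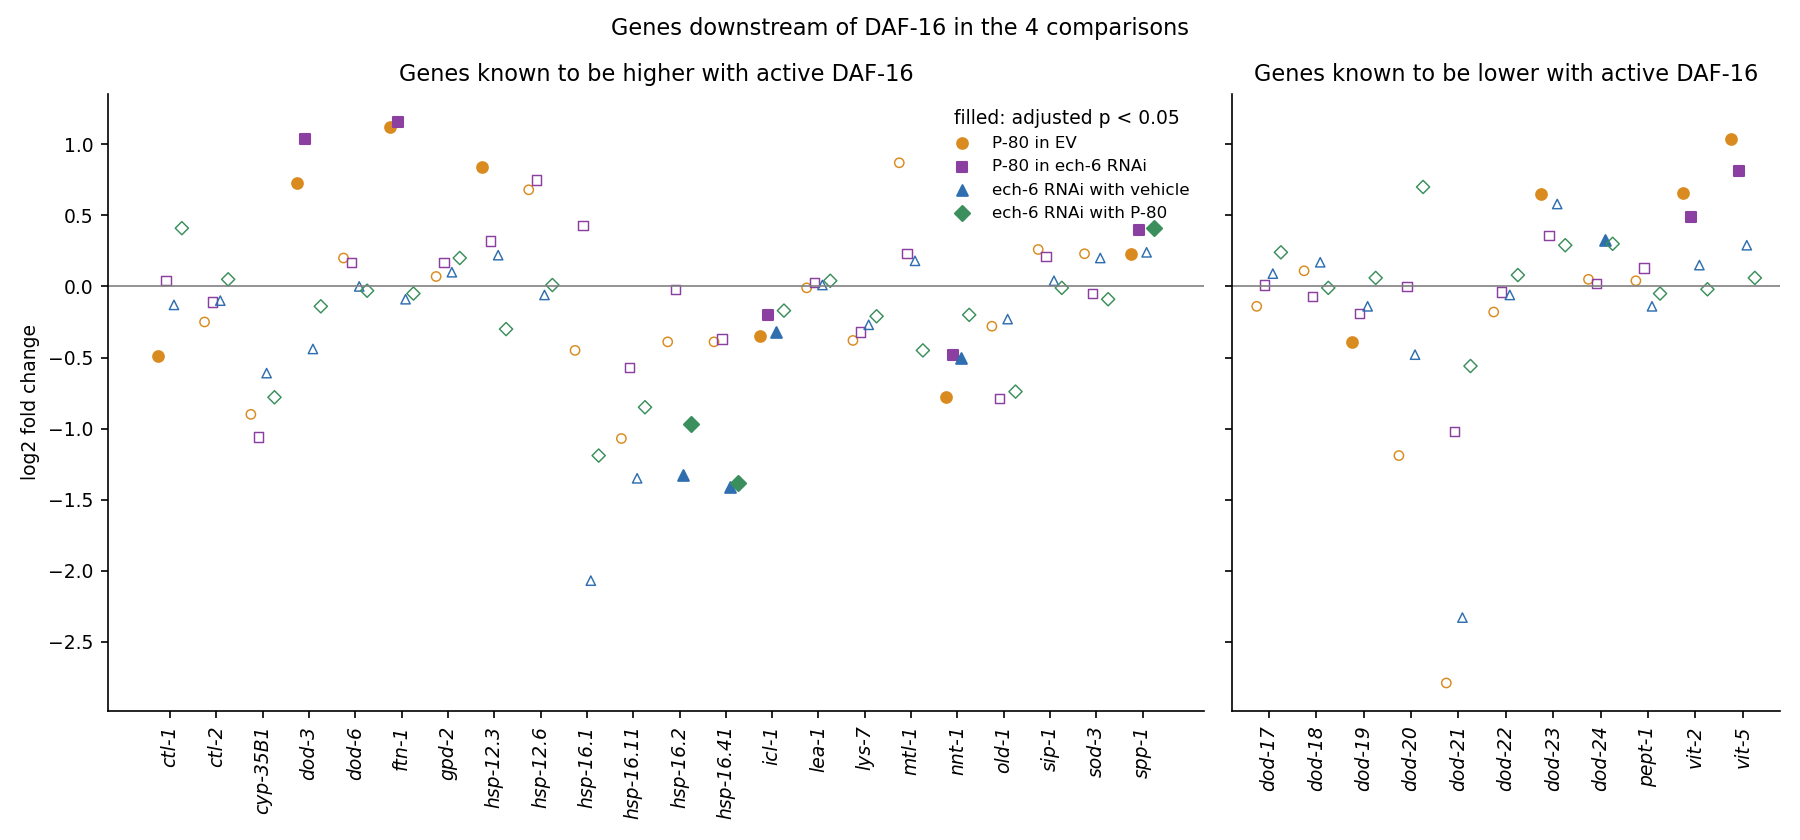
Log2 fold changes of 22 genes known to be higher (left) and 11 known to be lower (right) with active DAF-16, in the 4 comparisons, with filled symbols for genes past the adjusted test. Filled symbols lie on both sides of 0, with ftn-1 at 1.12 and nnt-1 at -0.78 for P-80 in EV, and vit-5 at 1.04 among the genes known to be lower.

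Of 11 genes known to be lower when DAF-16 is active, P-80 in EV raised 3 and lowered 1 (median 0.04), beside 6.97% of all genes higher and 9.14% lower, and lowered 2 when EV + P-80 replicate 1 was left out. The yolk protein gene vit-5 went from 1600 ± 259 CPM (SD, n = 4) to 3310 ± 551 (log2 fold change 1.04, SE 0.14, limma adjusted p = 0.000102), and vit-2 from 1780 ± 250 to 2810 ± 419 (0.66, SE 0.12, adjusted p = 0.00131). The other 2 were dod-23, which rose by 0.65 (adjusted p = 0.0253), and dod-19, which fell by 0.39 (adjusted p = 0.000644). Under ech-6 RNAi the fat diet raised vit-5 by 0.81 (adjusted p = 0.00251) and vit-2 by 0.49 (adjusted p = 0.0182), beside 2.63% of all genes higher. Without replicate 2, 3 or 4 of ech-6 RNAi + vehicle, or replicate 1 or 4 of ech-6 RNAi + P-80, 1 of the 2 was called. ech-6 RNAi with vehicle raised dod-24 by 0.33 (adjusted p = 0.036), beside 1.95% of all genes higher. That call was lost without replicate 1 or 4 of EV + vehicle or any replicate of ech-6 RNAi + vehicle, and 2 of the 11 were called higher without EV + P-80 replicate 3. For ech-6 RNAi with P-80 none of the 11 was called, and 1 was called higher without EV + P-80 replicate 1. The yolk genes have close copies in the genome, which makes the sharing of their reads uncertain, and the oocyte markers that rose beside them with P-80 in EV are given above; their part in these results was not tested. The interaction called none of the genes on any of these lists.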

How the data were processed

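Reads of 16 strand-specific, ribosome-depleted libraries were trimmed by the authors with Trimmomatic 0.32, aligned with HISAT2 2.0.4 to WBcel235 (Ensembl release 91) and counted per gene with HTSeq 0.6.1. The authors turned the counts into log2 CPM with TMM scaling, and these are the deposited values, under a header that says CPM. Undoing the log gave whole reads (within 0.1 of a read) for 100% of the lower values, which were the ones checked. Higher values, those of daf-18 included, were rounded to whole reads without that check. The values were fitted in R 4.3.3 with limma 3.58.1 (two-sided, with a mean-variance trend and a mean for each group, on all 16 samples). Tables and figures used Python 3.11.15, pandas 2.3.3, scipy 1.17.1 and matplotlib 3.10.9. Coordinates and exon lengths came from Ensembl release 115 of the same assembly. The genes named are the 10 members and, per list and comparison, up to 4 called genes with the smallest adjusted p. Members and lists were chosen with earlier results of these data known. Alternatives were other variance models, a filter at 1 CPM, log2(CPM + 1), quantile normalization, median centring, fits of only the groups compared, sample and voom weights, a replicate block, leaving out each sample, and, added after the values were seen, an oocyte marker covariate. The fit was tested on simulated data.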

Additional observations from a re-analysis of the deposited data

Results flagged for a closer look

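In 4 of 44 groups of samples tested (the 10 genes and ech-6 in each of the 4 groups), 1 sample lay far from the other 3 by Dixon's test, which chance does in about 1 group in 20. The level of sgk-1 in EV + vehicle replicate 1 was 5.53 log2 CPM, where the others had 5.24 to 5.27. The level of pdk-1 in EV + P-80 replicate 4 was 3.18, below 3.36 to 3.38 in the others. The level of daf-18 in ech-6 RNAi + vehicle replicate 1 was 8.01, above 7.76 to 7.79, in the sample that also had the highest oocyte marker sum of its group (2210 CPM). The level of ech-6 in ech-6 RNAi + vehicle replicate 3 was 7.48, above 6.05 to 6.17.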

How the results depend on the processing

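For P-80 in EV the count of members called was 1 (daf-18). It was 0 without the mean-variance trend, in the robust fit, in the fit of only the groups compared and with the oocyte marker covariate, and it ran from 0 to 1 with 1 sample left out. Of the 27 alternatives, 18 called daf-18. Its log2 fold change was 0.01 (limma adjusted p = 0.982) with the oocyte marker covariate. Over the other alternatives it ran from 0.19 to 0.33, with adjusted p from 0.00732 to 0.157. For ech-6 RNAi with vehicle the count was 0, and 1 (sgk-1) in the fit of only the groups compared. The counts of the other comparisons were 0 under every alternative listed. No called value changed sign. Among uncalled values of the members, 74 of 1340 changed sign, with an absolute log2 fold change of at most 0.21. Counts for the pathway lists moved by over 1.5 times, or to or from 0, in 85 of 1340 cases. Most of those counts were 0 in the main fit. Deviations of same-numbered samples correlated from -0.29 to 0.494, so the numbers were not taken to pair the samples. With the replicate block the count for P-80 in EV was 1, and 0 in the other 4 comparisons. Median centring shifted the median log2 fold change of all genes by less than 0.1. It went from -0.003 to 0.084 for P-80 in EV and from -0.017 to 0.069 for P-80 in ech-6 RNAi. In these comparisons the median absolute log2 fold change of the members was 0.072 and 0.04 in the main fit, which is no larger than the shift. With 4 samples per group, the SE of a member's log2 fold change was 0.038 to 0.086, lowest for daf-2 and highest for pdk-1.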

Other observations

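Among the 13910 genes averaging at least 1 CPM, the 3 whose log2 CPM followed daf-2 most closely over the 16 samples were nhr-12, a nuclear hormone receptor gene (Pearson r = 0.87), ced-1, the engulfment receptor gene (0.86), and nas-39, an astacin protease gene (0.83). For daf-16 they were F57G8.5 (0.91), cima-1 (0.87) and Y41D4A.7 (0.86). These values are a description over samples that share 4 groups and 1 normalization, and they were picked as the highest of all genes.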
